A study of Mus musculus with 6 samples.

Results

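The cytotoxic granule genes studied here are Gzma, Gzmb, Gzmk, Gzmm, Prf1, Nkg7, Ctsw and Srgn, which encode proteins of the secretory granules of killer lymphocytes. T cells from mouse lymph nodes were profiled on 6 Affymetrix expression arrays, 3 labelled Ezh2 fl/fl and 3 labelled Ezh2 deficient. Every probe set whose only annotated gene symbol was 1 of these 8 genes was taken, which gave 9 of the 45101 probe sets, 2 of them for Prf1 and 1 for each other gene. The Ezh2 fl/fl arrays hold T cells with Ezh2 alleles that carry loxP sites in the usual notation, and are called the control arrays below. Where 3 values of a group are given, they are normalised intensities in the order of replicates 1, 2 and 3. The labels do not name the Cre driver, the age, the sex or the strain, nor whether animals were pooled or the T cells purified, and they do not say that the samples came from separate animals. P-values thus reflect the spread among these 6 samples alone, and that spread may be technical.

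Cytotoxic T cells and natural killer cells kill a target by releasing these granules against it. Perforin, the product of Prf1, opens the way through the membrane of the target, and granzymes are serine proteases that enter and cleave proteins inside it. Serglycin, the product of Srgn, is a proteoglycan that holds granzymes in the granule, and resting T cells of lymph nodes are known to carry little granzyme B until they are activated. Ezh2 is the enzyme of Polycomb repressive complex 2 that methylates lysine 27 of histone H3, a mark of silenced genes found above all at promoters rich in CpG dinucleotides.

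The promoters of the granzyme genes are shown because histone marks and the factors searched for are usually studied there. The stretches are the 250 bases before the annotated start, 5′ to 3′, from RefSeq on GRCm38.p6. Capitals mark matches to any of 4 motifs searched on each strand, and no match overlapped another. The T-box factors were given the letters GGTGTGA, and the Runx factors the letters TGTGGT. For STAT factors the search used the letters TTCNNNGAA, and for the TATA box the letters TATAAA.
Gzma promoter, chr13:113100982-113101231, minus strand: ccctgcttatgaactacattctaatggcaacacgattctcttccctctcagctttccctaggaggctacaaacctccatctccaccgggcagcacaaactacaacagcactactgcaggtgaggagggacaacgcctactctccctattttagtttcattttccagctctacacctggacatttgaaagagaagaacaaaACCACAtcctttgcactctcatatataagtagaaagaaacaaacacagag
Gzmk promoter, chr13:113180966-113181215, minus strand: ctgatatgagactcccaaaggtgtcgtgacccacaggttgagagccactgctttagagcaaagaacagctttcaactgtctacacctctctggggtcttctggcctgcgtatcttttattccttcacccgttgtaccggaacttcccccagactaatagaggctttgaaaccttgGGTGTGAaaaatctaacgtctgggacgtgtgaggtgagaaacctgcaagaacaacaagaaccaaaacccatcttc
Gzmb promoter, chr14:56262335-56262584, minus strand: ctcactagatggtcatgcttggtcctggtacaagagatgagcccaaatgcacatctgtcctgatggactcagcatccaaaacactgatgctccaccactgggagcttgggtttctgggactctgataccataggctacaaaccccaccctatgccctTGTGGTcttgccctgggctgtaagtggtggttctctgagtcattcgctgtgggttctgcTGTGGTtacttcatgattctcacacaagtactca
Gzmm promoter, chr10:79688770-79689019, plus strand: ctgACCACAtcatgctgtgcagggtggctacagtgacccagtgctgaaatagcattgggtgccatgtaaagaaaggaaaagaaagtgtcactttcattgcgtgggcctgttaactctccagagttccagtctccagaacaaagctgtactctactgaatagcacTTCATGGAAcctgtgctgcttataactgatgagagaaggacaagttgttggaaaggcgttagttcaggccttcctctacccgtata

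Windows were found for 7 of the 8 genes, with 9 windows in all, since Srgn and Gzmm each have 2 annotated starts, and the one without is Ctsw. The 9 windows held between 1 CpG, at Gzmb, and 6, at Gzmk. Over all 32851 windows of the same length the median was 6, the lower quartile 2 and the upper quartile 16, so that 8 of the 9 windows lay between the lower quartile and the median. The Runx letters occurred in 6 of the 9 windows, of Gzma, Gzmb, Gzmm, Prf1, Nkg7 and Srgn, against 14% of all windows. The T-box letters occurred in 3 of 9, of Gzmk, Nkg7 and the second start of Gzmm, against 3.33% of all windows. STAT letters occurred in 2 of 9 against 7.02%, and TATA letters in 1 of 9 against 12.4%. In the Gzma window the Runx match began 50 bases before the start, and in the Gzmb window the 2 matches began 93 and 34 bases before it. A match describes the letters and is not evidence of a bound factor.

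Of the 9 T cell markers listed, 7 had a probe set, and their summed normalised intensity was 63081 to 64406 in the Ezh2 fl/fl arrays and 63513 to 65042 in the Ezh2 deficient arrays. Summed over the deposited intensities, an alternative chosen after seeing the data, they were 60060 to 63645 and 65466 to 66064, without overlap. Cd3e was at -0.04 and Cd3d at -0.03 in the fit. The Ezh2 probe set, which checks the labels, read 579, 684 and 801 on the control arrays and 282, 289 and 276 on the deficient arrays. Its log2 difference was -1.16 (SE 0.13, limma adjusted p = 0.0705). Which exons were removed is not in the labels, so this probe set may lie outside them. One control array, Ezh2 fl/fl replicate 1, was distant from the rest, at 41.5 on the first principal component where they ran from -15.1 to -1.48, and its median deposited intensity of 188.1 was above their 163.3 to 169.7. For Gzma and Gzmm the values without this array are given too.

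None of the granule genes passed the test over all probe sets, and the group did not move together. All 9 probe sets passed the filter on dim values, and 0 of 9 had an adjusted p under 0.05 by limma with Benjamini-Hochberg adjustment, where 0.0037% of the 27022 tested probe sets did. Their adjusted p ran from 0.584 to 0.99. Gzma and Gzmm stood apart from the other 6 genes, with unadjusted p under 0.05 and every Ezh2 deficient array above every Ezh2 fl/fl array. That is 2 of 9 probe sets on the higher side by p, where 3.84% of all tested probe sets were, and 2 of 9 by groups that do not overlap, where 6.55% were. On the lower side the counts were 0 of 9, with 3.38% of all tested probe sets lower by p and 6.54% by groups that do not overlap. The 9 differences had a median of 0.03 on the log2 scale, with 5 above 0 and 4 below, and 49.3% of all tested probe sets were above 0.

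**Figure D1:**
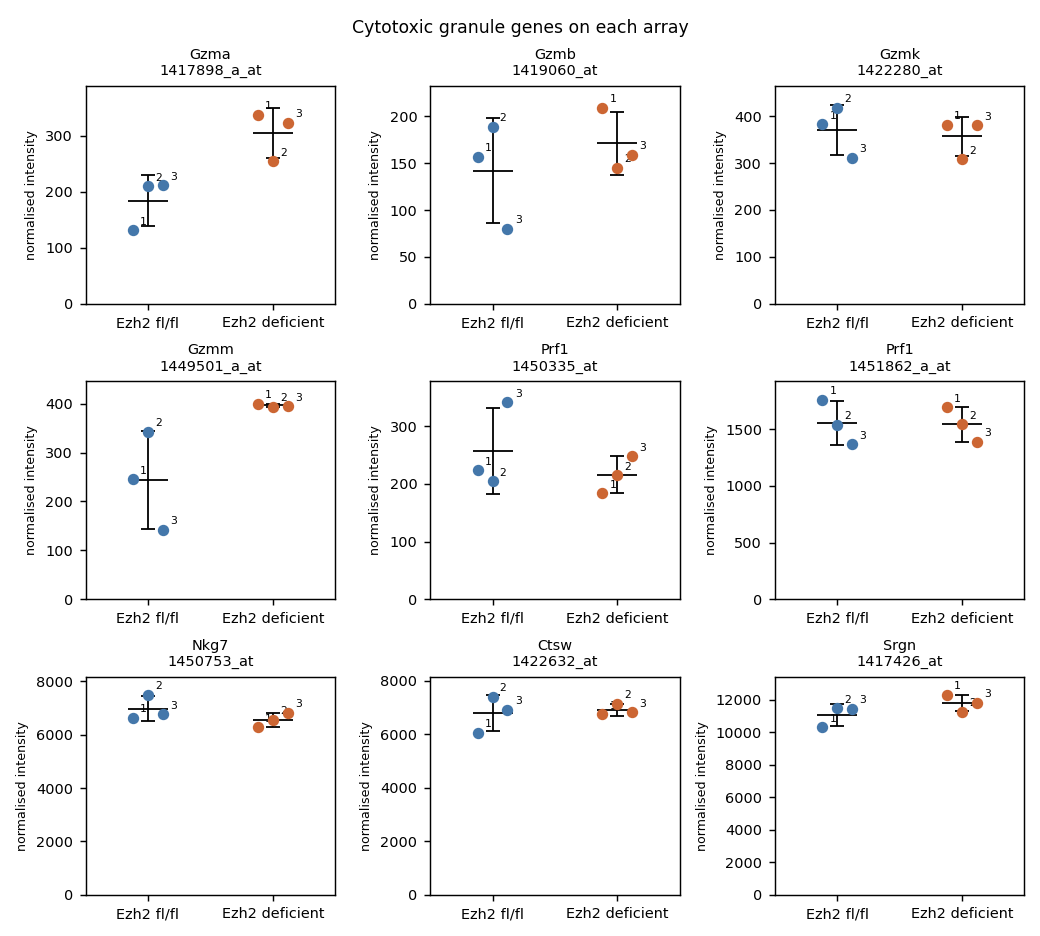
Normalised intensity of the 9 probe sets of the granule genes (vertical axis, linear and starting at 0), with each array as a point numbered by its replicate, and the mean and SD of 3 arrays in black. Only for Gzma and Gzmm do all 3 Ezh2 deficient arrays lie above all 3 Ezh2 fl/fl arrays; Gzmm reads 394 to 400 in the former and 142 to 343 in the latter.

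Granzyme A, a protease with trypsin-like specificity, was higher in each Ezh2 deficient array. The Gzma probe set read 131, 210 and 212 on the 3 control arrays and 338, 255 and 324 on the 3 deficient arrays. The groups did not overlap, and the lowest value was that of Ezh2 fl/fl replicate 1. The means were 185 ± 46.3 and 306 ± 44.2 (SD, n = 3 each), a log2 difference of 0.63 (SE 0.19, 95% interval 0.21 to 1.05), or 1.55-fold. The unadjusted limma p was 0.00774 and the adjusted p 0.584, so the difference missed the threshold. The exact two-sided permutation test of the 6 values gave 0.10, the smallest p that 3 arrays against 3 allow. Without Ezh2 fl/fl replicate 1 the log2 difference was 0.45, with an unadjusted limma p of 0.02. The unadjusted p stayed under 0.05 with each of the 6 arrays left out, and the differences then ran from 0.45 to 0.73.

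Granzyme M, a protease found mainly in natural killer cells and innate-like lymphocytes, gave nearly the same value in every Ezh2 deficient array. The Gzmm probe set read 246, 343 and 142 on the 3 control arrays and 400, 394 and 395 on the 3 deficient arrays. The groups did not overlap, and the spread lay in the controls, where the highest array was 2.42 times the lowest, against 1.01 times in the deficient arrays. The means were 244 ± 101 and 396 ± 3.01 (SD, n = 3 each), a log2 difference of 0.68 (SE 0.23, 95% interval 0.16 to 1.20). The unadjusted limma p was 0.0163, the adjusted p 0.623 and the exact permutation p 0.10. The size rested on single control arrays. The log2 difference was 0.72 without Ezh2 fl/fl replicate 1, 0.93 when replicate 2 of that group was left out and 0.40 when its replicate 3 was. With each array left out in turn the unadjusted p was under 0.05.

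Granzyme B, the protease best known for cleaving caspases and Bid in the target cell, was dim in both groups. Its probe set read 157, 189 and 80.2 on the 3 control arrays and 209, 145 and 159 on the 3 deficient arrays. The mean deposited intensity lay under the median of all deposited values, 170.4, in each group. The groups overlapped, with Ezh2 fl/fl replicate 3 well under the other 5 arrays. The log2 difference was 0.25 (SE 0.25, 95% interval -0.31 to 0.81, adjusted p = 0.854). It was -0.02 without Ezh2 fl/fl replicate 3 and 0.44 when replicate 2 of that group was left out.

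Granzyme K, a trypsin-like protease of memory and innate-like T cells, lies 2 annotated places from Gzma on chromosome 13. Its probe set read 383, 418 and 312 on the 3 control arrays and 382, 309 and 381 on the 3 deficient arrays. In each group 1 array was low and the other 2 were close to each other. The log2 difference was -0.05 (SE 0.14, 95% interval -0.36 to 0.27, adjusted p = 0.955), and it was 0.04 without Ezh2 fl/fl replicate 2 or without Ezh2 deficient replicate 2. Its window differed from that of Gzma in the motifs it held, a T-box match for Gzmk and a Runx match for Gzma, as printed above. Whether Gzma and Gzmk differ from each other in their response was not tested.

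Perforin, the pore-forming protein, was read by 2 probe sets, neither of which passed. The brighter read 1760, 1540 and 1368 on the 3 control arrays and 1694, 1544 and 1389 on the 3 deficient arrays, so the 2 groups covered nearly the same range. Its log2 difference was -0.01 (SE 0.11, 95% interval -0.26 to 0.24, adjusted p = 0.99). The dimmer read 224, 205 and 342 on the control arrays and 184, 215 and 248 on the deficient arrays. Its log2 difference was -0.19 (SE 0.19, adjusted p = 0.853) and came from Ezh2 fl/fl replicate 3, since it was 0.00031 without that array. The 2 probe sets did not order the control arrays alike, with Ezh2 fl/fl replicate 3 lowest on the brighter and highest on the dimmer.

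The other 3 genes were bright and steady. Nkg7, a granule membrane protein needed for full killing, read 6640, 7502 and 6767 on the 3 control arrays and 6280, 6564 and 6816 on the 3 deficient arrays. Its log2 difference was -0.09 (SE 0.06, 95% interval -0.23 to 0.06, adjusted p = 0.796), with overlapping groups. Ctsw, which encodes cathepsin W, a cysteine protease of cytotoxic lymphocytes, read 6059, 7405 and 6929 on the control arrays and 6756, 7149 and 6822 on the deficient arrays. The lowest and the highest value were both control arrays, and the log2 difference was 0.03 (SE 0.08, 95% interval -0.14 to 0.20, adjusted p = 0.949). Srgn, which is also made by myeloid and mast cells, read 10293, 11465 and 11425 on the control arrays and 12294, 11262 and 11811 on the deficient arrays. Its log2 difference was 0.09 (SE 0.06, 95% interval -0.04 to 0.22, adjusted p = 0.762). For Nkg7, Ctsw and Srgn the upper ends of the intervals were 1.04-fold, 1.15-fold and 1.17-fold higher in the deficient cells. A larger rise lies outside these intervals, but they hold for this fit only. Under alternative processing with every array kept, the log2 differences ran from -0.1 to 0.02 for Nkg7 and from 0.00195 to 0.13 for Ctsw. For Srgn they ran from 0.08 to 0.21, close to its upper end of 0.22.

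**Figure D2:**
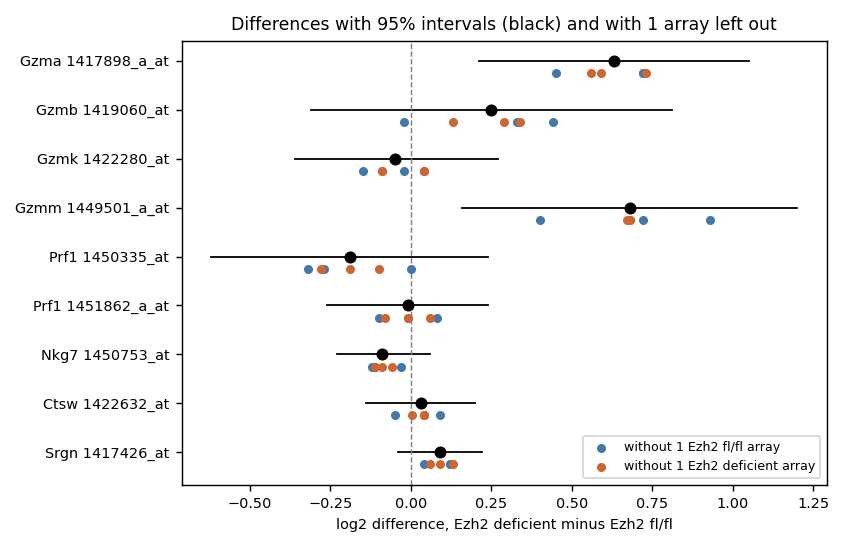
Log2 difference, Ezh2 deficient minus Ezh2 fl/fl (horizontal axis), of each probe set, with its 95% interval from limma in black and the difference after leaving out 1 array in colour. The intervals of Gzma (0.21 to 1.05) and Gzmm (0.16 to 1.20) lie above 0, the other 7 include 0, and the point of Gzmb without 1 control array falls to -0.02.

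The granule genes varied more between control arrays than between deficient arrays. The range of the 3 log2 values was wider in the Ezh2 fl/fl arrays for 9 of the 9 probe sets, where 58.1% of all tested probe sets had the wider range there. Control arrays differed by 1.06 on the log2 scale for Gzmm, 0.91 for Gzmb and 0.55 for Gzma, against 0.02, 0.42 and 0.35 among the deficient arrays. The margin was small for others, at 0.15 against 0.13 for Srgn and 0.17 against 0.12 for Nkg7. The arrays did not rank alike from gene to gene. Ezh2 fl/fl replicate 1 was lowest of all 6 for Gzma, Ctsw and Srgn. Ezh2 fl/fl replicate 3 was lowest for Gzmb, Gzmm and the brighter Prf1 probe set. Ezh2 deficient replicate 1 was highest for Gzma, Gzmb, Gzmm and Srgn but lowest for Nkg7 and the dimmer Prf1 probe set.

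Among 98 other tested genes of the granule pathway lists, the closest in pattern to each granule gene was found by the root mean square difference of log2 values centred on their mean over the 6 arrays. For Gzma it was Tbx21, which encodes the transcription factor T-bet, at 0.14, where Gzma itself varied by 0.38 about its mean. Tbx21 read 204, 337 and 320 on the 3 control arrays and 379, 340 and 443 on the 3 deficient arrays, with groups that did not overlap and a log2 difference of 0.40 (adjusted p = 0.695). Leaving out Ezh2 fl/fl replicate 1, its lowest array, brought the difference to 0.21. Second for Gzma was the receptor gene Notch1 at 0.16. For Gzmm the closest was Gzmb at 0.25, with Gzmm varying by 0.46, and for Gzmb it was the inhibitor gene Serpinb6b at 0.19, with Gzmb varying by 0.33. For Gzmk it was Cst7 at 0.07, which encodes cystatin F, an inhibitor of granule cathepsins, with Gzmk varying by 0.15. The genes nearest to Prf1, Nkg7, Ctsw and Srgn lay at 0.03 to 0.09, where these 4 varied by only 0.08 to 0.13. Such likeness over 6 arrays describes these arrays and was not tested.

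Gzmb ends a cluster of granzyme and mast cell protease genes on chromosome 14, and the rest of that cluster was dim in both groups. Of its 15 annotated genes, 12 besides Gzmb had a probe set with a single symbol, 13 probe sets in all, and 12 of these 13 lay under the median of all deposited values, 170.4, on every array. Only Cma1, which encodes the mast cell chymase, passed the filter, with a control mean of 210 ± 43.2 and a deficient mean of 159 ± 70.5 (SD over 3 arrays, log2 difference -0.38, adjusted p = 0.788). Gzmc, the nearest granzyme, read 12.3, 30.5 and 49.2 on the 3 control arrays and 33.5, 25.8 and 40.9 on the 3 deficient arrays. Gzmd, Gzme, Gzmf, Gzmg and Gzmn averaged between 1.13 and 51.2 in either group, which is too dim for an order between groups, and 0 of the 6 other granzyme genes was tested. The deposited table was used without detection calls, so these values do not separate a silent gene from a weak probe. The genes Gzmc to Gzmg are near copies of each other. Their promoter windows were 79.2% to 95.2% identical, with Gzmd and Gzme at 95.2%, whereas the Gzmb window matched these 5 at 56.4% to 60.8%. The Gzma window matched the other granzyme windows at 54.8% to 59.6%. Probe sets of such copies can share signal.

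**Figure D3:**
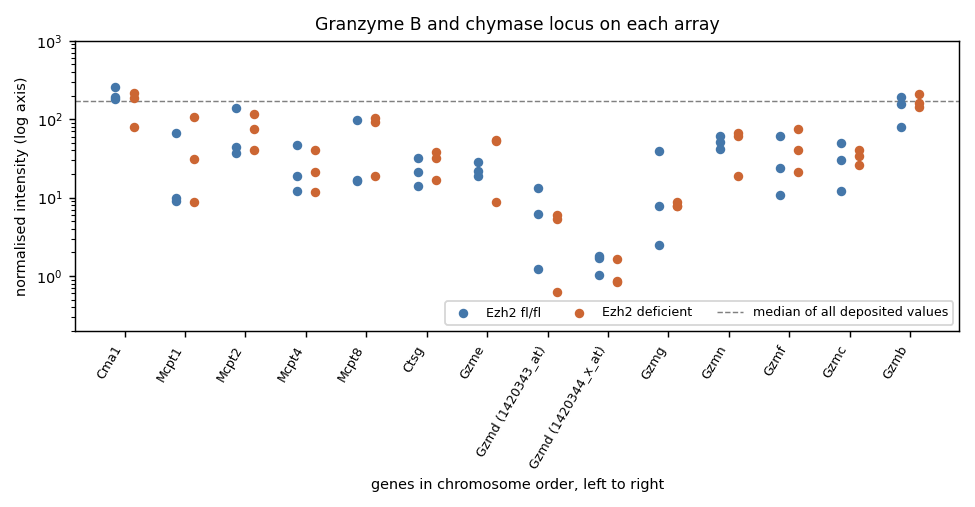
Normalised intensity (vertical log axis) of the 14 probe sets of the granzyme B and chymase cluster, in chromosome order, with 1 point per array coloured by group and the median of all deposited values, 170.4, as a dashed line. Apart from Cma1 and Gzmb, every point lies below that line in each group.

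Genes next to the other granule genes were likewise not called. Within 5 annotated places of the 8 genes there were 43 other genes with a probe set, and 41 of their probe sets were tested. Of these, 0 had an adjusted p under 0.05, and 1 had an unadjusted p under 0.05, a probe set of Fibp beside Ctsw (log2 difference -0.35), where 7.22% of all tested probe sets did. The other 3 tested Fibp probe sets were at -0.18, -0.05 and 0.15. That Fibp probe set had such a p in 10 of 15 alternatives. Beside Gzmm, the 8 tested probe sets of its neighbours ran from -0.19, for Polrmt, to 0.18, for Madcam1.

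The wider granule pathway gave 0 called genes of 91 tested, with each gene read by its brightest tested probe set. At an unadjusted p under 0.05 there were 7 higher and 5 lower, 13.2% of the 91, where 8.21% of all 12275 tested genes had such a p, 3.92% higher and 4.29% lower. Of the 91, 53 differences were above 0, where 46.9% of all tested genes were. Their median difference was 0.02, against -0.01 for all tested genes. The lists were drawn from textbook knowledge with earlier results of these data known. The shares over all tested genes also apply beside the count of each list below.

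Genes that process and pack granule proteins, such as cathepsins and lysosomal membrane proteins, were read by their brightest probe sets. Among 14 tested, 0 were higher and 0 lower at an unadjusted p under 0.05, and their median difference was 0.02. The smallest p on a brightest probe set was that of Gnptab, at 0.24 (limma adjusted p = 0.709). Gnptab makes the mannose phosphate tag that sorts granzymes. Next was the lysosomal membrane gene Lamp2 at 0.42 (limma adjusted p = 0.713). Leaving out Ezh2 fl/fl replicate 1 brought Lamp2 to 0.12. A dimmer Ctsc probe set was at 0.51 without overlap (limma adjusted p = 0.558), against 0.17 on its brightest. The dimmer Ctsb probe sets were at 0.57, 0.41, 0.30 and 0.09, against 0.03 on its brightest. Of these Ctsb probe sets, those at 0.57 and 0.41 had an unadjusted limma p under 0.05 and did not overlap.

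Genes of granule transport and release had 1 of 21 lower and 0 higher. It was Sytl1, a synaptotagmin-like protein that binds the granule GTPase Rab27a. Sytl1 read 423, 610 and 554 on the 3 control arrays and 345, 346 and 362 on the 3 deficient arrays, with groups that did not overlap. The log2 difference was -0.52 (SE 0.14, unadjusted p = 0.00411, adjusted p = 0.520). Lyst, which controls the size of lysosomal granules and is mutated in Chediak-Higashi syndrome, was at 0.25 (limma adjusted p = 0.700), with overlapping groups.

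Among 12 tested genes listed as inhibitors and targets of granzymes, 1 was higher and 1 lower. Serpinb6a, a serine protease inhibitor of the serpin family, read 463, 455 and 416 on the 3 control arrays and 633, 606 and 628 on the 3 deficient arrays. The groups were far apart for their spread, with a log2 difference of 0.45 (SE 0.10, unadjusted p = 0.00127, adjusted p = 0.427). The difference stood at 0.40 to 0.48 with each array left out. Whether Serpinb6a acts on granzymes was not tested. The other tested serpins of the list, Serpinb6b and Serpinb9, were at 0.29 and 0.11, with an unadjusted limma p of 0.0887 and 0.352. Set, a target of granzyme A, was at -0.18 (limma adjusted p = 0.621) on its brightest probe set and at -0.09 and -0.04 on its others. Set kept an unadjusted p under 0.05 in 9 of 15 alternatives, and was at -0.06 under the deposited scaling with median centring.

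Of 29 transcription factors and cytokine receptors that regulate granule genes, 4 were higher and 0 lower at an unadjusted p under 0.05. The median of the 29 was 0.06. Of all tested genes, 3.92% were higher and 4.29% lower by such a p. Eomes was not among the 4 by its brightest probe set, at 0.27. Its other probe set was at 0.41, with an unadjusted limma p of 0.0344 and an adjusted p of 0.660. Id3, an inhibitor of E proteins, had a control mean of 907 ± 98.7 and a deficient mean of 1242 ± 210 (SD over 3 arrays, log2 difference 0.43, adjusted p = 0.619). Bcl6, a repressor of effector differentiation, was at 0.39, with an adjusted limma p of 0.619, and at 0.11 on its other probe set. Notch1 was at 0.35 (-0.01 on its other probe set) and Il2rb, a chain of the receptors for interleukin 2 and 15, at 0.29 (0.19 on its other). The unadjusted p of Il2rb was under 0.05 in 8 of 15 alternatives and that of Notch1 in 14 of 15, against 15 of 15 for Id3 and for Bcl6. Without Ezh2 fl/fl replicate 1 the difference of Il2rb was 0.15 and that of Notch1 0.22. These 4 genes include both activators and a repressor of the cytotoxic programme.

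Other effector genes of killer cells split, with 2 of 16 higher and 3 lower at an unadjusted p under 0.05. Higher were the chemokine Xcl1 at 0.68 (limma adjusted p = 0.532) and the cytokine Ifng at 0.38 (limma adjusted p = 0.657). Lower were the cytokines Lta at -0.35 (limma adjusted p = 0.589) and Tnf at -0.35 (limma adjusted p = 0.636) and Klrg1, an inhibitory receptor of terminal effector cells, at -0.31 (limma adjusted p = 0.650). Xcl1 read 128, 98.3 and 151 on the 3 control arrays and 236, 255 and 187 on the 3 deficient arrays, without overlap. The unadjusted p stayed under 0.05 in 14 of 14 alternatives for Xcl1 and 15 of 15 for Lta. It did so in 11 of 15 for Ifng, 12 of 15 for Tnf and 10 of 15 for Klrg1, and Tnf was at -0.22 without Ezh2 fl/fl replicate 3.

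**Figure D4:**
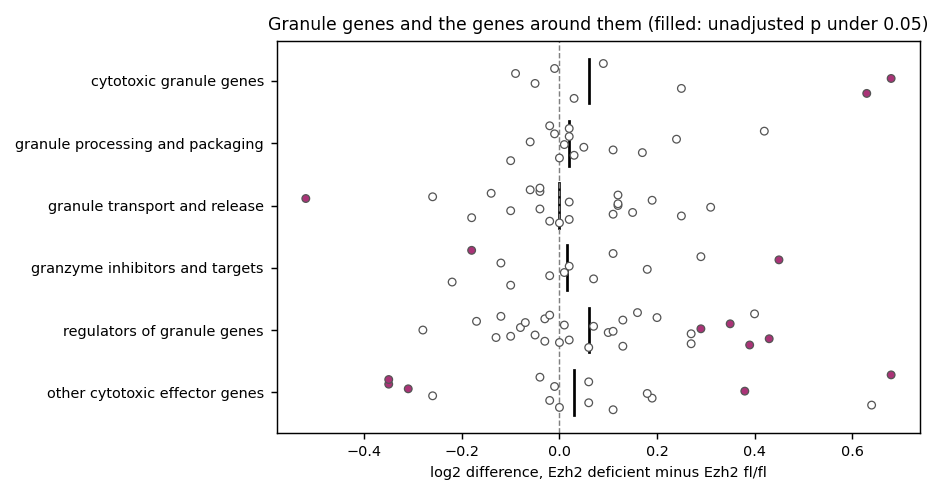
Log2 difference, Ezh2 deficient minus Ezh2 fl/fl (horizontal axis), of each tested gene by its brightest probe set, for the 8 granule genes and 5 lists around them, with the median of each list as a black bar and genes at an unadjusted p under 0.05 filled. Medians lie between 0.00 and 0.06, and the filled points fall on either side of 0.

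Markers of the cells that can carry these granules moved in either direction, and their part in the values of Gzma and Gzmm was not tested. None of them was called, and the counts that follow are at an unadjusted limma p under 0.05. Of all tested genes, read by their brightest probe sets, 3.92% were higher and 4.29% lower by such a p. The groups did not overlap for 13.1% of all tested probe sets. In bulk samples fewer cells of a type and less RNA per cell cannot be told apart. No marker of any list was also 1 of the granule genes.

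Of the 6 CD8 T cell markers, 3 had a difference above 0 and 3 below. At the threshold 0 were higher and 2 lower. Their summed intensity was 29029 to 30969 on control and 28013 to 28854 on deficient arrays, without overlap, but the deposited intensities summed to 28876 to 30550 and 28210 to 29412, which overlap. Cd8a was at -0.06 and Cd8b1, the other chain of the CD8 receptor, at -0.17, or -0.05 under the deposited scaling with median centring. The other marker past the threshold was Cd7, a surface protein of T and natural killer cells. Cd7 was at -0.56 (limma adjusted p = 0.347), without overlap between the groups. Above 0 were Eomes at 0.27 (0.41 on its other probe set), Crtam at 0.19, without overlap, and Klrd1 at 0.11.

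Of the 21 natural killer cell markers, 15 had a probe set, 11 of those were dim and 8 were tested, 6 with a difference above 0 and 2 below. Their sum was 6419 to 7823 on control and 7300 to 8033 on deficient arrays, most of it from Klrd1, which CD8 T cells also express. Klrd1 and Eomes, both above 0, are in the list of CD8 T cell markers too and are counted in each list. At the threshold 1 was higher and 0 lower, the receptor gene Klrc1, which read 52.7, 166 and 83.5 on the 3 control arrays and 156, 256 and 155 on the 3 deficient arrays. Klrc1 was at 0.74 (limma adjusted p = 0.657) and its groups overlapped. The defining receptor gene Ncr1 was dim, at 115 to 120 on control and 79.3 to 120 on deficient arrays. Tyrobp, which encodes the signalling adaptor DAP12, was too dim to be tested but did not overlap, at 25.8 to 64.3 and 76.5 to 107. Klre1 was at 0.34, also without overlap, and Klrk1 and Fcgr3 were at -0.33 and -0.41 without overlap in the other direction.

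Of the 4 tested genes listed as invariant natural killer T cell markers, 1 was higher and 1 lower. The sum was 5624 to 6919 on control and 5878 to 6495 on deficient arrays. Zbtb16, the defining factor of these cells, was at 0.01. Cd1d1, which encodes the molecule that these cells recognise, was at -0.01. The sum holds Cd1d1, at means of 1627 on control and 1622 on deficient arrays, and Slamf6, at 2375 and 2983. It thus does not measure these cells alone. Slamf6 was at 0.33 (limma adjusted p = 0.483), without overlap, and Cxcr6 at -0.52 (limma adjusted p = 0.689), with overlap.

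Of the 4 tested gamma delta T cell markers, 0 were higher and 1 lower, and the sum was 1118 to 1738 on control and 980 to 1186 on deficient arrays. Cd163l1 was the lower one, at -0.79 (limma adjusted p = 0.636), and it was highest on Ezh2 fl/fl replicate 1. Sox13 was at 0.20, Blk at -0.34 and Il17a at -0.01.

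Of the 5 CD4 T cell markers, 1 had a difference above 0 and 4 below. At the threshold 1 was higher and 1 lower. Their sum was 7468 to 7833 on control and 7801 to 9212 on deficient arrays, which overlap. The sum of deposited intensities was 7393 to 7823 and 7887 to 9254, without overlap. The only marker above 0 was Izumo1r, with normalised means of 2547 on control and 3772 on deficient arrays. Izumo1r, formerly named folate receptor 4, was at 0.57 (limma adjusted p = 0.501), without overlap. Tnfrsf4, the costimulatory receptor OX40, was at -0.27 (limma adjusted p = 0.578), also without overlap. Cd4 was at -0.04, Zbtb7b at -0.08 and Cd40lg at -0.14.

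Cells outside the T lineage also make some of these products, Srgn above all, and the part of their markers in the granule gene values was not tested. Of the 8 tested dendritic cell markers, 6 had a difference above 0 and 2 below. At the threshold 3 were higher and 0 lower. Fscn1 was at 1.18 (limma adjusted p = 0.636) and Ccl22 at 0.51 (limma adjusted p = 0.619). H2-Aa was at 0.49 (limma adjusted p = 0.669). The groups overlapped for Fscn1 and H2-Aa. Fscn1 is part of the sum that follows, with means of 479 on control and 993 on deficient arrays. Below 0 were Siglech at -0.30 and Zbtb46 at -0.21. The dendritic cell sum was 1648 to 2307 on control and 2311 to 3076 on deficient arrays, while the deposited intensities, at 1744 to 2299 and 2266 to 3035, overlapped. The defining markers Itgax, at 0.02, and Flt3, not tested, were dim. Flt3 had means of 84.4 on control and 46.9 on deficient arrays.

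Of the 5 tested macrophage and monocyte markers, 2 had a difference above 0 and 3 below. At the threshold 0 were higher and 1 lower, Csf1r at -0.42 (limma adjusted p = 0.632) without overlap. Also below 0 were Cd68 at -0.17 and Lyz2 at -0.14. Above 0 were Adgre1 at 0.23 and Ccr2 at 0.01. The sum was 1476 to 1586 on control and 1313 to 1561 on deficient arrays. Cd14 was dim, as was Kit among the mast cell markers. Of the 3 tested mast cell and basophil markers, 0 were higher and 1 lower, Cpa3 at -0.34 (limma adjusted p = 0.692) without overlap, and the sum was 829 to 905 and 548 to 864. Neutrophil markers had 0 of 3 tested past the threshold, S100a8 and S100a9 both dim, and a sum of 785 to 1086 and 770 to 1009. B cell markers had 0 of 4 tested past it and a sum of 966 to 1007 and 945 to 993, with Cd79a dim on every array.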

How the data were processed

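RNA from 6 samples of mouse lymph node T cells was read on 6 single-colour arrays, 3 per group by their labels. The deposited table holds linear intensities for 45101 probe sets, with the authors' software and settings not given in the sources used here. All arrays shared a 2% trimmed mean of 500.002, while their medians differed by 15.2%. The arrays were therefore quantile normalised, and log2(intensity + 43.3) was taken, 43.3 being the 20th percentile of the deposited intensities. Differences and folds use these log2 values, which makes those of dim probe sets too small. After leaving out 64 control probe sets and those with a mean log2 below the 40th percentile, 27022 probe sets were fitted in limma 3.58.1 (R 4.3.3; statmod 1.5.0 for the robust fit) with eBayes and an intensity trend, over all 6 arrays and with no covariate. Tests are two-sided, with Benjamini-Hochberg adjustment over all 27022, and the limma step was tested on simulated data. The number of arrays limits the precision.

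Names came from the platform annotation, with gene order and promoters from RefSeq tables of GRCm38.p6 (Python 3.11.15). Promoter identity counts identical bases in a global alignment. The genes and lists were chosen with earlier results of these data known. Named by rule were all probe sets of the 8 genes and of Ezh2, the 2 genes of smallest unadjusted p in each list, the nearest genes in pattern, neighbours at an unadjusted p under 0.05 and the genes of the granzyme B cluster. Further genes of the lists, single markers past the first 2 of a list, and the neighbours of Gzmm were chosen after their values were seen. Alternatives covered the scaling, the pseudocount, the filter, the eBayes settings, array weights and each array left out.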

Additional observations from a re-analysis of the deposited data

How the results depend on the processing

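The count of granule probe sets with an adjusted p under 0.05 was 0 under every alternative. The counts by unadjusted p and by groups that do not overlap, 2 each, were both 1 with the filter at the 60th percentile, which removed Gzma, Gzmb and the dimmer Prf1 probe set, and with an array left out they ran from 2 to 2 and from 2 to 3. In at least 1 alternative the sign turned for Gzmb, Gzmk, the 2 Prf1 probe sets, Nkg7 and Ctsw, and for Cst7 and Cd8a. The signs of Gzma, Gzmm and Srgn did not turn. With an array left out, the differences ran from -0.02 to 0.44 for Gzmb, -0.15 to 0.04 for Gzmk, -0.32 to 0.00031 for the dimmer and -0.10 to 0.08 for the brighter Prf1 probe set, -0.05 to 0.09 for Ctsw and -0.07 to 0.09 for Cst7. The brighter Prf1 probe set was at 0.01 under the deposited scaling and 0.04 with array weights. Under the deposited scaling with median centring it was at 0.07, Nkg7 at 0.02 and Cd8a at 0.05, and the list medians were 0.17 for the granule genes, 0.10 for processing and packaging, 0.09 for transport and release, 0.10 for inhibitors and targets and 0.14 for regulators. That scaling put the median of all tested probe sets at 0.05. With an array left out the medians ran from 0.03 to 0.08 for processing and from -0.04 to 0.12 for other effector genes. Over all probe sets the 1 call became 3 under the deposited scaling, with robust eBayes or with array weights, 2 with median centring, and 1 to 6 with an array left out (6 without Ezh2 deficient replicate 2, and 3 when Ezh2 fl/fl replicate 1 was the one left out). Beyond the removal by the filter, the cause was not tested. No paired analysis was possible because the labels give the groups no shared replicate numbers. Dim probe sets such as Gzmb and the clustered granzymes limit what the arrays can show.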

Other observations

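Ccl5, a chemokine that killer cells store and release, was picked after its values were seen because its control arrays were far apart. It read 659, 2715 and 981 on the 3 control arrays and 1952, 1787 and 2022 on the 3 deficient arrays. The log2 difference was 0.64 (limma adjusted p = 0.757), with overlapping groups. It was 0.23 without Ezh2 fl/fl replicate 1 and 1.21 when replicate 2 of that group was left out, and the adjusted p over all alternatives ran from 0.180 to 0.919. Ezh2 fl/fl replicate 2 was also the highest control array for Gzmb, Gzmk, Gzmm, Nkg7, Ctsw and Srgn.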
